A study of Mus musculus with 6 samples.

Results

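Transcripts of 40 genes of the synaptic vesicle and of transmitter release were followed in the embryonic mouse retina, with and without the T-box transcription factor Tbx3. The genes were chosen by name for what their proteins do, which is to dock, fuse, fill, tether or retrieve synaptic vesicles or to hold the synapse together. The list was drawn up with earlier results of these data known, so its counts beside those of all genes are a description only. Of the 26147 genes in the deposited table, 38 were genes of this list, and the transcript levels of Gad1 and Slc18a3 were not analysed here. A gene was tested where its normalized value reached at least 10 in at least 3 libraries, which 36 of the 40 did. Sncb and Slc17a7 lay below that minimum and are given as values only. Of the 36 tested genes, 30 reached 10 in all 6 libraries, and none reached it in the wild-type libraries alone. Cplx1 reached it in 3 wild-type libraries and only 1 knockout library.

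The study profiled polyadenylated RNA of isolated retinas at embryonic day 13.5 (E13.5), all on a C57BL/6J background, in 3 libraries per genotype. The wild-type animals were siblings without the Dkk3-Cre transgene that carried 1 floxed and 1 normal Tbx3 allele (Tbx3Fl/+). The conditional knockouts (Tbx3 cKO) carried Dkk3-Cre and the genotype Tbx3∆Fl/∆Fl. Dkk3-Cre is a transgene used to recombine floxed alleles in retinal progenitors. As no wild type carried Cre, the presence of Cre and the loss of Tbx3 cannot be told apart, and the labels do not say how many retinas or embryos were pooled, or whether litters were shared. The p-values therefore rest on the spread among these libraries only, and some of it may be technical.

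Neurotransmitter is stored in vesicles that dock at the active zone, a protein scaffold at the presynaptic membrane. A SNARE protein of the vesicle then zips together with SNARE proteins of the plasma membrane, complexins hold that complex ready, and synaptotagmins trigger fusion when calcium enters. At this stage of retinal development the first neurons, mainly ganglion, amacrine, horizontal and cone cells, are leaving the progenitor pool, and synapses form later, so transcripts of the release machinery mark young neurons. Several of these genes are also used by other secretory cells, and some act in general membrane traffic.

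Tbx3 (ENSMUSG00000018604) itself had values of 1998, 2558 and 2577 in the wild types and 40.3, 47.8 and 58.9 in the cKO libraries, with all cKO libraries below all wild types. The libraries held an estimated 21481834 to 27172937 reads. Libraries of the same genotype differed from each other. Summed over 17 pan-neuronal genes, the normalized level was 162441, 30841 and 47341 in the wild types against 27885, 14875 and 8684 in the knockouts, by replicate number. The 10 ganglion cell markers summed to 59825, 11962 and 20198 against 7842, 4226 and 1633, with Nefm, a neurofilament, at 22016, 4511 and 7861 against 2005, 1175 and 121. Tbx3 cKO 3 had 0 for Pou4f2, Ptf1a and Neurod1, factors of ganglion, amacrine and photoreceptor precursors. Not all markers of these cells were low there. It was the lowest library for 7 of 8 tested ganglion cell markers, 4 of 7 amacrine and horizontal and 2 of 5 photoreceptor precursor markers. For Tfap2b (1505), of amacrine and horizontal cells, and Otx2 (3542) it was the highest. Tbx3 cKO 3 also had the highest sums of pigment epithelium (26974) and periocular mesenchyme (15001) markers. Which cells held the Tfap2b and Otx2 transcripts was not tested. Other cells differed as well. The 6 pigment epithelium markers in the table summed to 807 in wild type 1, 3850 to 6807 in the 4 middle libraries and 26974 in Tbx3 cKO 3, and Pmel ran from 371 to 11190. The 9 red blood cell markers summed to 63305 to 97080 in the wild types against 193293 to 622812 in the knockouts, led by Hbb-y (12188 to 248650), and the 6 macrophage markers to 682 to 1223 and 2418 to 4978, led by Csf1r. Lens genes were present in wild type 2 and 3 and Tbx3 cKO 2 (sums of 49479 to 136350, mostly Cryaa) and near absent in the other 3 libraries (436 to 620). Periocular mesenchyme markers summed to 846 to 15001 without separating the groups, led by Col1a2. Endothelial markers summed to 2948 to 4607. Kdr made up nearly all of the sum in wild type 1 (4231.5 of 4489) but not in Tbx3 cKO 3 (902 of 2948). Its log2 fold change was -0.78, while the other 4 markers had positive ones and the list median was 1.36. The progenitor markers, led by Sfrp2, were present in all 6 libraries (38371 to 121940), lowest in Tbx3 cKO 3. Of the 9 progenitor genes, 7 had negative log2 fold changes, while Lhx2 (0.87) and Hes1 (0.35) had positive ones. Onecut2 for amacrine and horizontal cells ran from 743 to 6602 and Otx2 for photoreceptor precursors from 1165 to 3542. Otx2 was flat (log2 fold change -0.04), whereas the 5 photoreceptor precursor genes had a median of -2.93. The log2 ratio of embryonic Hbb-y to adult Hbb-bs and Hbb-bt, a gauge of red cell maturity, was -1.59 for wild type 1 and -0.42 for Tbx3 cKO 1, but 2.26 to 2.54 in the other 4 libraries. Because of these differences, counts are given over all 6 libraries and again without wild type 1 and Tbx3 cKO 3, and Tbx3 cKO 1 is set beside wild type 1, and Tbx3 cKO 2 beside wild type 2 and 3. The part of these differences in the results was not tested.

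Most synaptic genes had lower values in Tbx3 cKO than in wild type, by unequal amounts, and no single gene passed the test over the whole table. The 38 genes summed to 56787, 22732 and 26374 in the wild types against 23099, 17678 and 16842 in the knockouts. Wild type 1 stood far above the other libraries, and Tbx3 cKO 1 lay level with wild type 2. Of the 36 tested genes, 29 had a negative log2 fold change and 7 a positive one, where 52% of the 18866 tested genes of the table were negative. The median log2 fold change (cKO minus wild type) was -1.07 over the synaptic genes and -0.02 over all tested genes. It was -0.19 over 80 other tested genes of the same machinery. After Benjamini-Hochberg adjustment in limma 0 of the 36 were called, against 0.0636% of all tested genes, and adjusted p ran from 0.0992 for Sv2c to 0.992 for Syn3. At an unadjusted p under 0.05 stood 14 synaptic genes, all lower in Tbx3 cKO, where 7.18% of all genes were lower and 6.4% higher by that rule. In bulk tissue, fewer cells of a type and less RNA per cell cannot be told apart.

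The lower values were present without the most extreme libraries, at a smaller size. Without wild type 1 and Tbx3 cKO 3, the median log2 fold change was -0.51 and 25 of 36 genes were negative (52.1% over all genes). By the unadjusted rule 8 genes were then lower and 1, Rab3b, was higher (4.16% and 3.96% over all genes), and 10 lay wholly lower and 2 wholly higher (20.4% and 19.3% over all genes). In that fit 1 synaptic gene, Sv2c, was called after adjustment (0.228% over all genes). Libraries were also paired by the sign of the globin ratio and by lens genes near absent or present. This pairing left out Tbx3 cKO 3. Wild type 1 and Tbx3 cKO 1 still differed in globin ratio (-1.59 and -0.42) and in pigment epithelium markers (sums of 807 and 6807). Of the 36 genes, 25 were lower both in Tbx3 cKO 1 than in wild type 1 and in Tbx3 cKO 2 than in wild type 2 and 3. Of all genes, 26.1% had this pattern. None was higher in both, against 23.6% of all genes, and 11 were mixed. The part of this pattern in Tbx3 cKO 1 was largely set by wild type 1, which lay above both other wild types for 32 of the 36 genes, and in summed level Tbx3 cKO 1 was nearer to wild type 2. Tbx3 cKO 3 was like wild type 2 and 3 in globin ratio but not in lens genes. It lay below both of them for 22 of the 36 genes and above both for 11, and the shares over all genes were not computed. Across the 19 alternative settings and library sets tried, 23 of the 36 kept a negative fold change throughout, 3 (Vamp1, Rab3b and Amph) kept a positive one and 10 took both signs.

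Complete separation of the genotypes was less common. All 3 wild-type values lay above all 3 cKO values for 8 genes, namely Snap25, Cplx1, Syt11, Sv2c, Sncg, Slc17a6, Nrxn2 and Nlgn1, where 11.8% of all genes did so. No synaptic gene lay wholly higher in Tbx3 cKO (10.6% of all genes). With 3 libraries against 3 the exact two-sided permutation test cannot go below 0.1, the value each of these 8 genes reached. Wild type 1 was the highest library for 28 of the 36 genes (26.6% of all genes), whereas the lowest was Tbx3 cKO 3 for 16 genes (26.9%) and Tbx3 cKO 2 for 12 (17.2%). Tbx3 cKO 3 was at the same time the highest library for 5 genes, Vamp1, Sypl1, Rab3b, Amph and Dnm1 (26% of all genes).

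**Figure D1:**
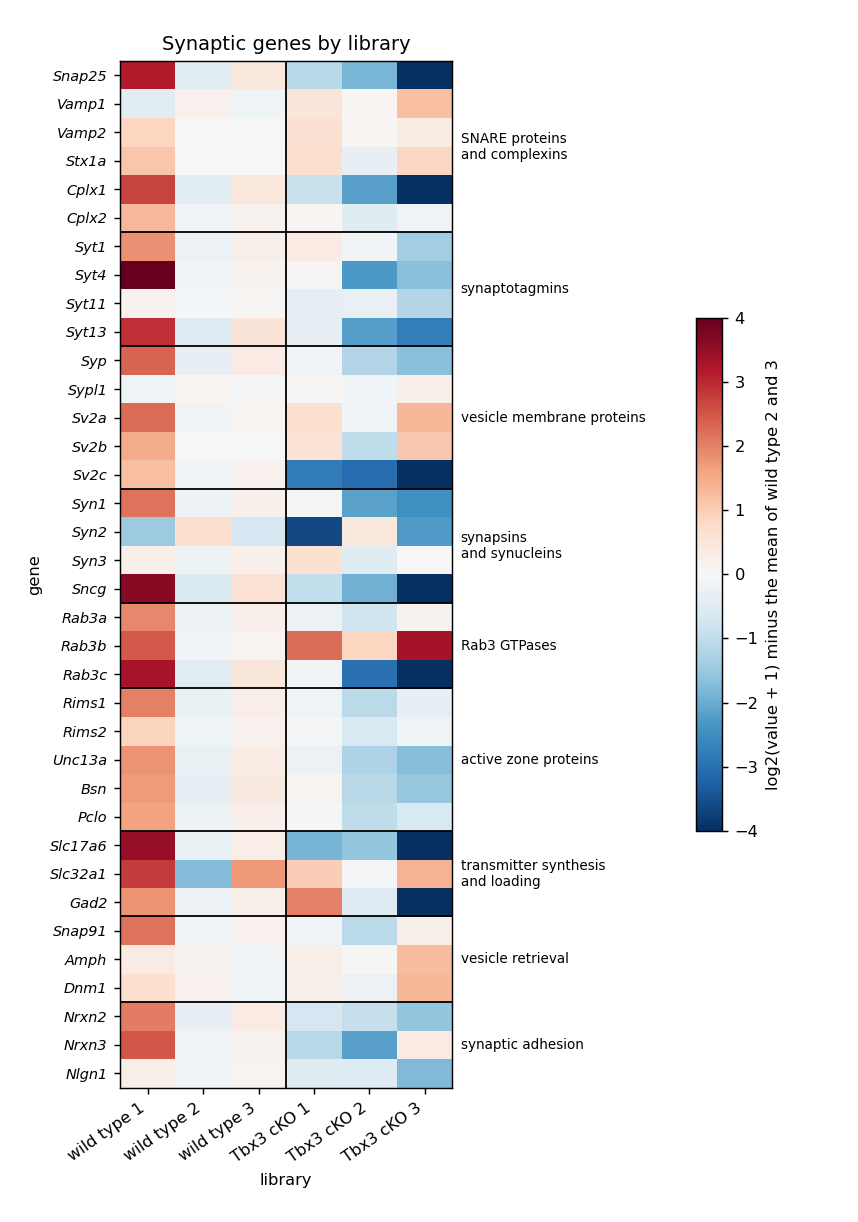
Heat map of the 36 tested synaptic genes (rows, grouped by role) in the 6 libraries (columns). Colour is log2(value + 1) minus the mean of wild type 2 and 3 for that gene, with differences beyond 4 in size drawn in the end colours. Wild type 1 is red for most genes and Tbx3 cKO 2 and 3 are blue for most. Vamp1, Sv2a, Sv2b, Rab3b, Amph and Dnm1 are among the genes that are red in Tbx3 cKO 3.

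Promoters of the synaptic genes were compared with those of other genes, because many neuronal genes carry the element bound by the repressor REST. RefSeq promoter windows of build GRCm38.p6, from 250 bases before to 50 bases after the start, were at hand for 32 of the 40 genes. This build differs from the GRCm39 named in the processing notes, and the table itself holds no coordinates, so the windows were matched by gene symbol only. The windows are rich in G and C, with a median of 61.3% against 52.7% over 27025 genes, and in CpG, with a median observed over expected ratio of 0.677 against 0.389. The REST element RE1, 21 bases of which 19 are fixed, was searched on both strands with up to 5 mismatches. It was found for 3 of the 32 genes (9.38%), and for 1.73% of all genes. These shares were not compared at equal G and C content. The sites are printed 5′ to 3′ with the bases that match the element in capitals. They lie upstream of Syn1 at chrX:20921130-20921150 on the minus strand (2 mismatches), upstream of Gad2 at chr2:22622161-22622181 on the plus strand (4 mismatches), and just inside the first transcribed bases of Unc13a at chr8:71671727-71671747 on the plus strand (5 mismatches).
Syn1: TTCAGCACCgcGGtCAGaGCC
Gad2: ggtAGCACCctGGACAGCGCg
Unc13a: TTCAGCACCggGGgCgcgGaC
The T-box half-site AGGTGTGA, searched on both strands with no mismatch, was in the window of 0 of the 32 genes and of 1.48% of all genes. A match is a description of the letters and not a bound site, and no match says only that these letters are not in this window. Rest transcripts themselves were at 2353, 3667 and 3258 in the wild types against 3107, 2552 and 3400 in the knockouts, with overlapping groups and a log2 fold change of -0.02 (SE 0.19, adjusted p = 0.967 by limma).

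Promoters are printed for 3 genes that show the range of the list: Sv2c, which had the smallest p, Syn1, whose window holds the closest REST match (in capitals), and Rab3b, which had the largest positive fold change. Each is the 250 bases before the RefSeq start in GRCm38.p6, 5′ to 3′ along the gene. Sv2c is at chr13:96132578-96132827 (minus strand), Syn1 at chrX:20920919-20921168 (minus strand) and Rab3b at chr4:108878820-108879069 (plus strand).
Sv2c: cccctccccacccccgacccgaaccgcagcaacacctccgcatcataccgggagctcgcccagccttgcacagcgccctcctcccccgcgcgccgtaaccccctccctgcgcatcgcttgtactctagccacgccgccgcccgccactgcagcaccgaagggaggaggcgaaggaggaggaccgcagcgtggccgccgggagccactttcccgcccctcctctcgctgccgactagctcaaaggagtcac
Syn1: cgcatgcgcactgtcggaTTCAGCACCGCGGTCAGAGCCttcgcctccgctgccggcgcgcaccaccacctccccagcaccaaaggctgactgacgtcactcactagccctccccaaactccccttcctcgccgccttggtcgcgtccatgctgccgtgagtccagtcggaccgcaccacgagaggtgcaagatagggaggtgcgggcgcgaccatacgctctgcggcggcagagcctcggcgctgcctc
Rab3b: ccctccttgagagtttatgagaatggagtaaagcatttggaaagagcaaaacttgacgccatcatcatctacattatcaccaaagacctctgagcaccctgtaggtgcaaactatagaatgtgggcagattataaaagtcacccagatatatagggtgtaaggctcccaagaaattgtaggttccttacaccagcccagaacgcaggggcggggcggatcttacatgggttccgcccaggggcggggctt
The Sv2c and Rab3b windows differ in composition, at 71.7% and 51.7% G and C over the whole window.

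Levels between genes were compared per kilobase of exon, using GENCODE M21 gene models. On that scale the wild-type means were highest for Syt11 (1749 per kilobase) and Sncg (1743), followed by Cplx2 (581), Vamp2 (571), Syt13 (422) and Snap25 (386). They were lowest for Slc17a7 (2.26), Sncb (6.05) and Slc32a1 (9.26). The most abundant transcripts of the list thus included Syt11, with nearly level wild-type libraries, and Sncg, whose wild-type mean rests largely on wild type 1. The places of Syt13 and Snap25 rest on that library too, as it stood 7.08-fold and 8.68-fold above the mean of wild type 2 and 3.

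The SNARE proteins and complexins split into genes that were far lower in Tbx3 cKO and genes whose values lay level. Values stand in the order of replicates 1, 2 and 3, first wild type and then Tbx3 cKO. Snap25 (ENSMUSG00000027273), the plasma membrane SNARE of neurons, was at 2101, 173 and 311 against 107, 64.9 and 10.5. Every cKO library lay below every wild-type library, though the wild types themselves spread over more than the gap between wild type 2 and Tbx3 cKO 1. The log2 fold change was -3.48 (SE 1.12, adjusted p = 0.329 by limma), and -1.47 without wild type 1 and Tbx3 cKO 3. Cplx1 (ENSMUSG00000033615), a complexin that clamps and promotes fusion, was at 228, 25.4 and 46.6 against 18.1, 6.83 and 0, again without overlap (log2 fold change -3.64, SE 1.25, adjusted p = 0.335 by limma). Listed at 0, that library could still hold a level of up to 3.16, the worth of 3 reads, and such limits cover counting error only. Its relative Cplx2 (ENSMUSG00000025867) kept a high level, at 4739, 1746 and 2108 against 2030, 1370 and 1708 (log2 fold change -0.63, SE 0.36). Apart from wild type 1, the Cplx2 values of all libraries lay between 1370 and 2108.

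Vamp2 (ENSMUSG00000020894), the main vesicle SNARE, was at 2317, 1273 and 1256 against 1943, 1322 and 1562, with fully overlapping groups. Its log2 fold change of 0.04 had a 95% interval of -0.59 to 0.66, which leaves room for a change of that size in either direction. Stx1a, the syntaxin partner of Snap25, ran from 202 to 442 in the wild types and from 164 to 367 in the knockouts (log2 fold change 0.02, 95% interval -0.96 to 0.99). Vamp1, a second vesicle SNARE, ran from 170 to 257 and from 242 to 527 (log2 fold change 0.73, SE 0.32, adjusted p = 0.369 by limma) and was highest in Tbx3 cKO 3. Vamp2 and Stx1a took both signs under the alternatives. The median log2 fold change of these 6 genes was -0.30.

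The synaptotagmins, a family named for its calcium sensors of fusion, all had negative fold changes, with a median of -1.87 over 4 genes. Syt11 (ENSMUSG00000068923), a synaptotagmin that does not bind calcium and acts in vesicle traffic, was at 9655, 8448 and 8968 against 6695, 7036 and 3896. The wild types lay close together and all 3 cKO libraries were below them, by 1.54-fold between the means (log2 fold change -0.66, SE 0.22, adjusted p = 0.334 by limma). Syt1 (ENSMUSG00000035864), the fast calcium sensor of transmitter release, was at 3069, 735 and 1035 against 1094, 801 and 334 (log2 fold change -1.0, SE 0.61). Those Syt1 values overlapped, and without wild type 1 and Tbx3 cKO 3 the fold change was 0.10, so its negative sign rested on these 2 libraries. Syt13 (ENSMUSG00000027220), which lacks calcium-binding residues as well, was at 3715, 342 and 707 against 391, 106 and 71.6. Only Tbx3 cKO 1 overlapped the wild types, by lying above wild type 2 (log2 fold change -2.74, SE 0.96, adjusted p = 0.335 by limma). Syt4, found on dense-core vesicles, was at 1848, 75.2 and 89.7 against 85.7, 15.9 and 25.3. For this gene wild type 1 was 22.4-fold above the mean of wild type 2 and 3, the largest such ratio among the Syt genes of the list.

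Among the vesicle membrane proteins, Sv2c stood apart from its relatives. Sv2c (ENSMUSG00000051111), 1 of 3 SV2 glycoproteins of the vesicle membrane and a receptor of botulinum neurotoxin A, was at 886, 341 and 431 against 54.4, 45.5 and 17.9. The highest cKO value lay far under the lowest wild-type value, and the genotypes did not overlap. The means were 553 ± 292 and 39.3 ± 19.0 (SD, n = 3 each), a 14.1-fold difference. Wild type 1 was 16.3-fold above Tbx3 cKO 1, and the mean of wild type 2 and 3 was 8.49-fold above Tbx3 cKO 2, so the difference was present within both pairings. The log2 fold change was -3.80 (SE 0.52, 95% interval -5.02 to -2.58), with an adjusted p of 0.0992 by limma, above the threshold of 0.05. It was called without wild type 1 and Tbx3 cKO 3 (-2.92, adjusted p = 0.0210 by limma), with library weights (-3.38, adjusted p = 0.0206 by limma), a fit that leans on wild type 3 (weight 10.02, against 0.383 to 1.36 for the others), and with a term for the globin ratio (-3.65, adjusted p = 0.0215 by limma). Over all alternatives its adjusted p ran from 0.0206 to 0.456 and its log2 fold change from -4.10 to -2.92.

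The other SV2 genes did not show that gap. Sv2a, the SV2 form found at most synapses, ran from 189 to 957 in the wild types and from 189 to 508 in the knockouts (log2 fold change -0.13, 95% interval -1.68 to 1.42). Sv2b ran from 240 to 681 and from 121 to 521 (log2 fold change -0.28, 95% interval -1.74 to 1.18), and both genes took both signs under the alternatives. Syp (ENSMUSG00000031144), synaptophysin, the classical vesicle marker, was at 1734, 271 and 430 against 317, 151 and 107, with only Tbx3 cKO 1 above wild type 2 (log2 fold change -1.76, SE 0.71, adjusted p = 0.359 by limma). Sypl1 (ENSMUSG00000020570), a synaptophysin-like protein of many cell types, was at 1110, 1327 and 1181 against 1284, 1148 and 1477. Its values were level across the genotypes, with a log2 fold change of 0.11 and a 95% interval of -0.20 to 0.42.

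**Figure D2:**
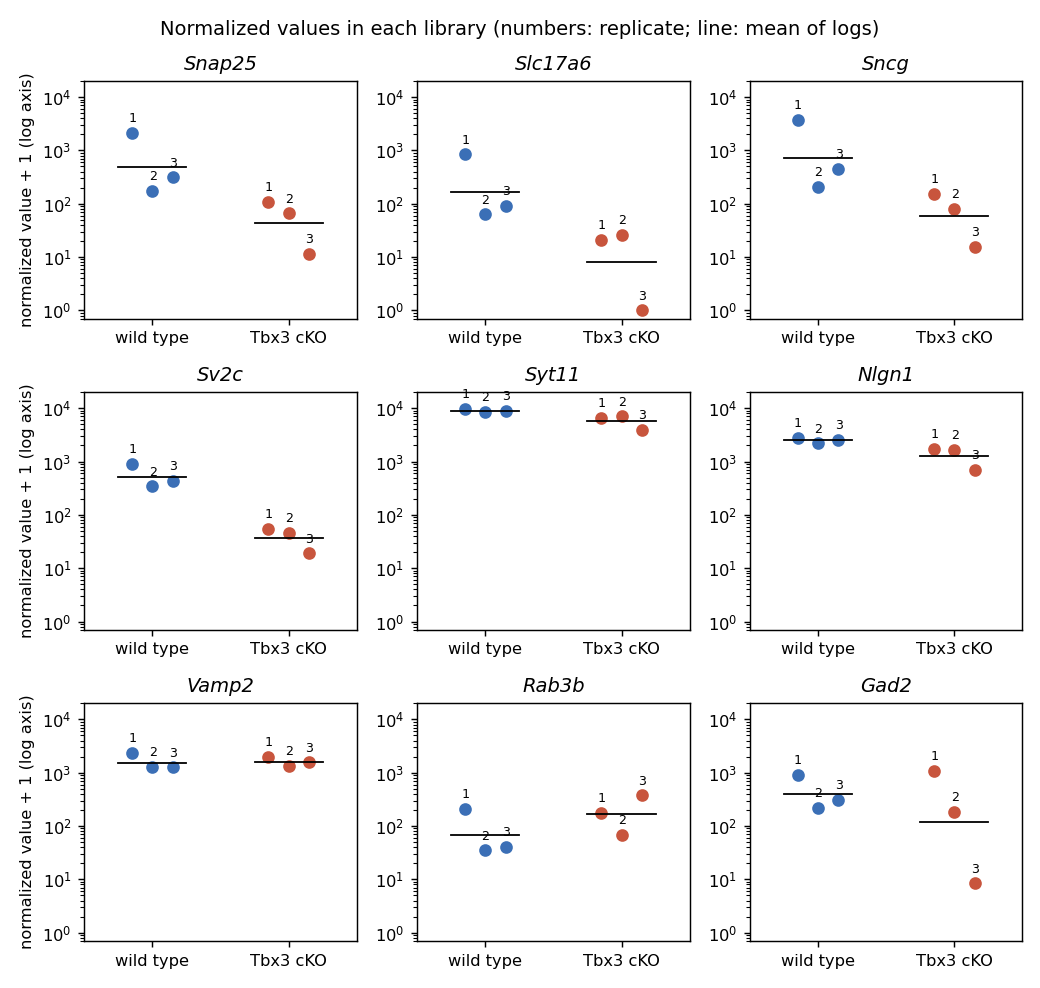
Normalized values plus 1 (log axis) of 9 synaptic genes in each library, numbered by replicate, with the mean of the logs as a line. Syt11 and Nlgn1 separate the genotypes with little spread in wild type, Sv2c with a gap from 54.4 to 341, Snap25, Slc17a6 and Sncg separate them with wild type 1 far above the others, and Vamp2, Rab3b and Gad2 overlap.

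Of the synapsins and synucleins, Sncg had the widest range. Sncg (ENSMUSG00000023064), gamma-synuclein, a vesicle-associated protein abundant in ganglion cells, was at 3796, 204 and 454 against 152, 79.6 and 14.7. The groups did not overlap, and wild type 1 stood 11.5-fold above the mean of the other wild types (log2 fold change -3.61, SE 1.21, adjusted p = 0.334 by limma). Without wild type 1 and Tbx3 cKO 3 the fold change of Sncg was -1.46. Syn1 (ENSMUSG00000037217), the synapsin that tethers reserve vesicles to actin, was at 498, 94.9 and 126 against 105, 23.9 and 18.9. Tbx3 cKO 1 lay between wild type 2 and wild type 3, and the other 2 cKO libraries were lower than all wild types (log2 fold change -2.28, SE 0.83, adjusted p = 0.342 by limma). Syn3, the synapsin of early neuronal development, ran from 73.2 to 96.8 in the wild types and from 60.3 to 129 in the knockouts, a log2 fold change of -0.01 with a 95% interval of -0.83 to 0.81, and its sign turned under equal column totals. Syn2 ran from 30.8 to 138 and from 6.05 to 115, with no order by genotype. Sncb, beta-synuclein, was at 23.3, 0 and 4.49 against 6.05, 0 and 0, too low to test.

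The 3 Rab3 GTPases, which mark vesicles for docking, did not share a sign. Rab3a (ENSMUSG00000031840), the main neuronal form, was at 708, 161 and 213 against 156, 107 and 204 (log2 fold change -0.94, SE 0.56, adjusted p = 0.456 by limma). Rab3c (ENSMUSG00000021700) was at 967, 71.4 and 134 against 89.7, 11.4 and 5.26 (log2 fold change -3.46, SE 1.25, adjusted p = 0.342 by limma). For both genes Tbx3 cKO 2 was below wild type 2 and 3 and Tbx3 cKO 1 was below wild type 1, but only for Rab3c was Tbx3 cKO 3 the lowest library. Rab3b (ENSMUSG00000003411), a form also used in endocrine and epithelial secretion, was at 206, 33.8 and 39.5 against 175, 67.1 and 373. Here Tbx3 cKO 3 was the highest library and wild type 2 and 3 were the lowest ones. The log2 fold change was 1.31 (SE 0.85, adjusted p = 0.487 by limma), the highest of the list, and 1.55 without wild type 1 and Tbx3 cKO 3. Within the pairing of replicate 1, however, Rab3b was 1.18-fold higher in wild type.

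All 5 active zone genes were lower in Tbx3 cKO 1 than in wild type 1 and lower in Tbx3 cKO 2 than in wild type 2 and 3, with a median log2 fold change of -1.19. Bsn (ENSMUSG00000032589), bassoon, a giant scaffold protein, was at 2663, 642 and 1036 against 877, 380 and 287 (log2 fold change -1.40, SE 0.59, adjusted p = 0.367 by limma). Pclo (ENSMUSG00000061601), its relative piccolo, was at 1998, 577 and 753 against 623, 329 and 434 (log2 fold change -1.09, SE 0.47, adjusted p = 0.369 by limma). Tbx3 cKO 1 lay among the wild-type values for both scaffolds, and Tbx3 cKO 2 and 3 lay below them. Unc13a (ENSMUSG00000034799), Munc13-1, which primes docked vesicles, was at 1602, 372 and 571 against 394, 196 and 142 (log2 fold change -1.65, SE 0.59, adjusted p = 0.341 by limma). It was called with a term for the globin ratio (-1.44, adjusted p = 0.0462 by limma), as was Syt13 (-2.39, adjusted p = 0.0322 by limma). Rims1 and Rims2, the RIM scaffolds that bind Rab3 and calcium channels, ran from 63.9 to 313 and from 507 to 1046 in the wild types and from 36.4 to 68.5 and from 368 to 541 in the knockouts. No active zone gene was free of overlap between the genotypes.

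Among the genes that set the transmitter, Slc17a6 separated the genotypes and the GABA genes did not. Slc17a6 (ENSMUSG00000030500), the vesicular glutamate transporter VGLUT2 of ganglion cells, was at 843, 62.0 and 90.6 against 20.2, 25.03 and 0. The groups did not overlap, and the log2 fold change of -4.37 (SE 1.48, adjusted p = 0.334 by limma) was the lowest of the list with all 6 libraries. Without wild type 1 and Tbx3 cKO 3 it was -1.70, and that of Sv2c was lower (-2.92). Wild type 1 was 41.8-fold above Tbx3 cKO 1, whereas the mean of wild type 2 and 3 was 3.05-fold above Tbx3 cKO 2. Slc17a7, the transporter VGLUT1, was at 10.3, 2.82 and 7.18 against 2.02, 0 and 0, near the floor in every library. Gad2 (ENSMUSG00000026787), a GABA-synthesizing enzyme, was at 907, 220 and 310 against 1066, 181 and 7.37. Tbx3 cKO 1 had the highest Gad2 value and Tbx3 cKO 3 the lowest, so the log2 fold change of -1.75 (SE 1.62) had a 95% interval of -5.57 to 2.06 and turned to 0.75 without wild type 1 and Tbx3 cKO 3. Slc32a1 (ENSMUSG00000037771), which loads GABA and glycine into vesicles, was at 52.2, 1.28 and 24.2 against 14.1, 6.19 and 18.9, without order by genotype (log2 fold change -0.17, SE 1.17). Whether Slc17a6 and Gad2 differed in their response was not tested.

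The vesicle retrieval genes had a median log2 fold change of 0.22 over 3 genes, and of 0.006 without wild type 1 and Tbx3 cKO 3. Amph (ENSMUSG00000021314), amphiphysin, which brings dynamin to the neck of a budding vesicle, was at 753, 655 and 547 against 698, 616 and 1423 (log2 fold change 0.39, SE 0.32). Dnm1, the neuronal dynamin that cuts that neck, ran from 296 to 535 in the wild types and from 287 to 838 in the knockouts (log2 fold change 0.22, SE 0.41). For both genes Tbx3 cKO 1 and 2 lay among or next to the wild types and Tbx3 cKO 3 stood alone at the top. Without Tbx3 cKO 3 the fold change of Dnm1 was -0.22. Snap91 (ENSMUSG00000033419), the clathrin adaptor AP180, was at 1401, 275 and 347 against 288, 146 and 366 (log2 fold change -1.04, SE 0.64).

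Synaptic adhesion genes were lower in each pairing. Nlgn1 (ENSMUSG00000063887), the postsynaptic partner of neurexins at excitatory synapses, was at 2822, 2188 and 2586 against 1700, 1652 and 704. The genotypes did not overlap, and the difference was 1.66-fold between the replicate 1 libraries and 1.44-fold between wild type 2 and 3 and Tbx3 cKO 2 (log2 fold change -1.0, SE 0.34, adjusted p = 0.332 by limma). Nrxn2 (ENSMUSG00000033768), a neurexin of the presynaptic membrane, was at 1525, 296 and 468 against 232, 197 and 126, also without overlap (log2 fold change -1.73, SE 0.58, adjusted p = 0.334 by limma). Nrxn3 ran from 54.5 to 341 in the wild types and from 12.5 to 75.8 in the knockouts (log2 fold change -1.81, SE 0.88), with Tbx3 cKO 3 above wild type 2 and 3. Like Syt11, Nlgn1 had a small spread among the wild types, and wild type 1 was 1.18-fold above the mean of the other wild types, compared with 3.99-fold for Nrxn2.

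**Figure D3:**
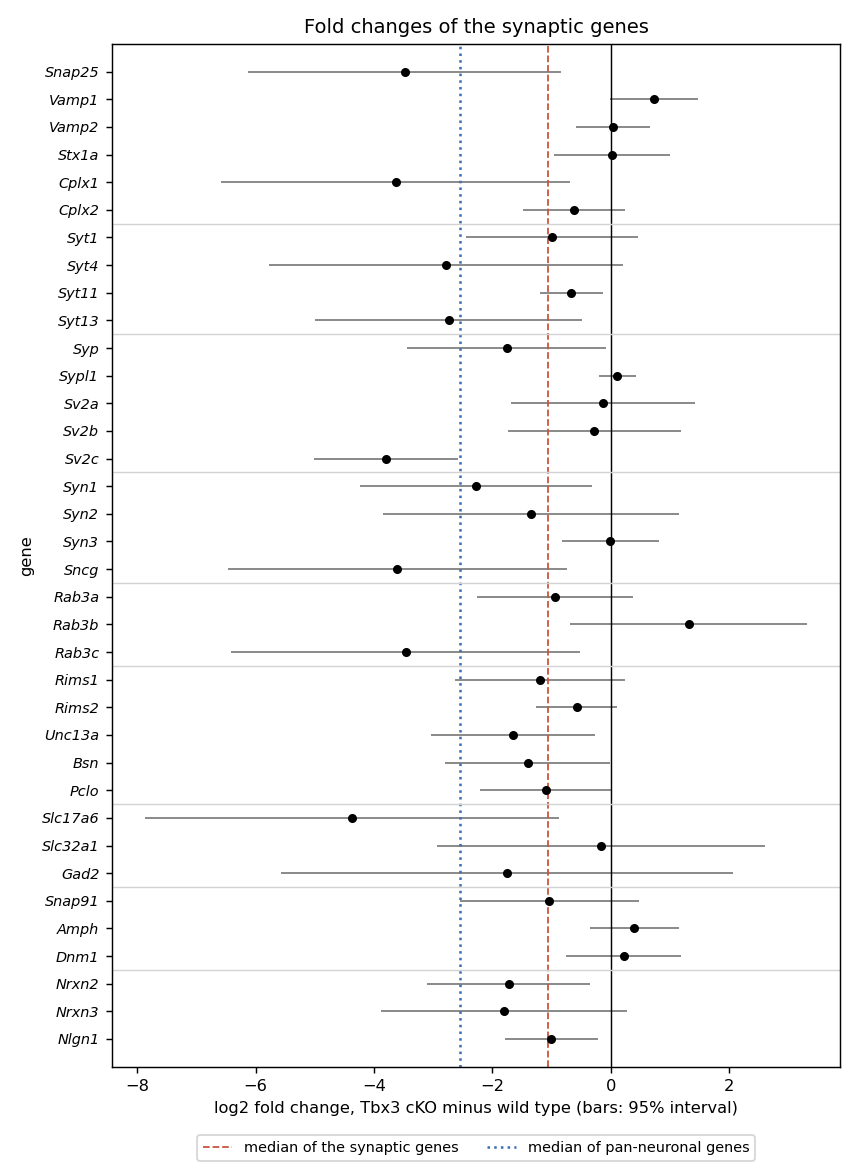
Log2 fold change (Tbx3 cKO minus wild type) of the 36 tested synaptic genes with 95% intervals from limma, in order of role. The dashed line is their median (-1.07) and the dotted line the median of the pan-neuronal genes (-2.55). Most points lie left of 0, Sv2c has an interval from -5.02 to -2.58, and the Vamp2, Stx1a and Syn3 points lie on 0.

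The synaptic genes were set beside general neuron genes in the same libraries. The 17 pan-neuronal genes, such as the neuronal tubulin Tubb3 (25393, 6514 and 10342 against 6625, 3647 and 777), all had negative fold changes, with a median of -2.55. Of the 36 synaptic genes, 28 had a fold change above that median and 8 below it, namely Snap25, Cplx1, Syt4, Syt13, Sv2c, Sncg, Rab3c and Slc17a6. The median distance from the pan-neuronal median was 1.49 on the log2 scale, and 0.50 without wild type 1 and Tbx3 cKO 3. Library by library, the median synaptic gene lay 1.80 above its mean of wild type 2 and 3 in wild type 1 on the log2 scale, and differed from it by -0.07, -0.85 and -0.88 in the knockouts 1, 2 and 3. The pan-neuronal median differed by 2.25 in wild type 1 and by -0.49, -1.56 and -2.56 in the cKO libraries. Both lists were highest in wild type 1 and lowest in Tbx3 cKO 3, and in every library the pan-neuronal value was the farther from 0. The pigment epithelium median differed by -2.46 in wild type 1 and by 0.69, 0.26 and 2.26 in the knockouts. How far the share of neurons, pigment cells or other cells in each library set the synaptic values was not tested.

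**Figure D4:**
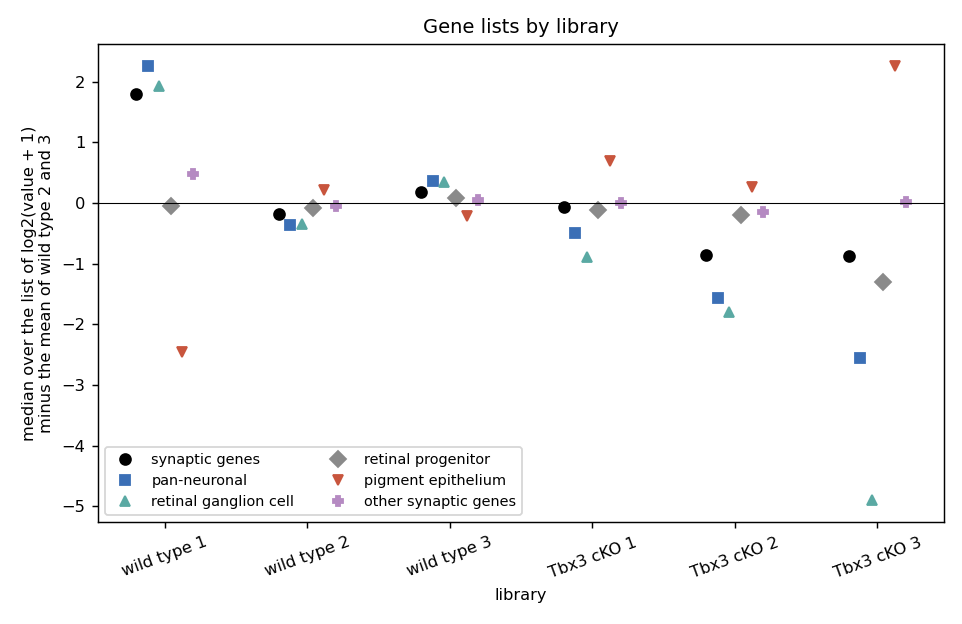
Median over 6 gene lists of log2(value + 1) minus each gene's mean in wild type 2 and 3, by library. The synaptic genes (black circles) follow the pan-neuronal (blue) and ganglion cell (green) lists at a smaller distance from 0, from 1.80 in wild type 1 to -0.88 in Tbx3 cKO 3, while the pigment epithelium list (red) runs the other way.

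Ratios between relatives within a library do not depend on the scaling of that library, apart from the 1 added to each value. The pairs given here were picked after their values had been seen, so they carry no test. Of the other pairs computed, Syt4 over Syt1 separated the genotypes, and Vamp1 over Vamp2, Syt11 over Syt1 and Rims1 over Rims2 did not. The log2 ratio of Sv2c to Sv2a was -0.11, 0.85 and 0.98 in the wild types against -2.51, -2.03 and -4.75 in the knockouts, without overlap between the genotypes. By contrast, the ratio of Sv2b to Sv2a was -0.49, 0.39 and 0.13 against 0.18, -0.64 and 0.04. Of these SV2 ratios, the one with Sv2c separated the genotypes and the other did not. For Rab3b over Rab3a the ratio was -1.77, -2.21 and -2.41 against 0.17, -0.66 and 0.86, and every cKO library lay above every wild type. The ratio of Cplx1 to Cplx2 went the other way, at -4.37, -6.05 and -5.47 against -6.73, -7.45 and -10.7. Syn1 over Syn3 was 2.36, 0.37 and 0.37 against -0.30, -1.30 and -2.12, also without overlap, whereas the Rab3c over Rab3a ratio of Tbx3 cKO 1 (-0.79) lay among those of the wild types.

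**Figure D5:**
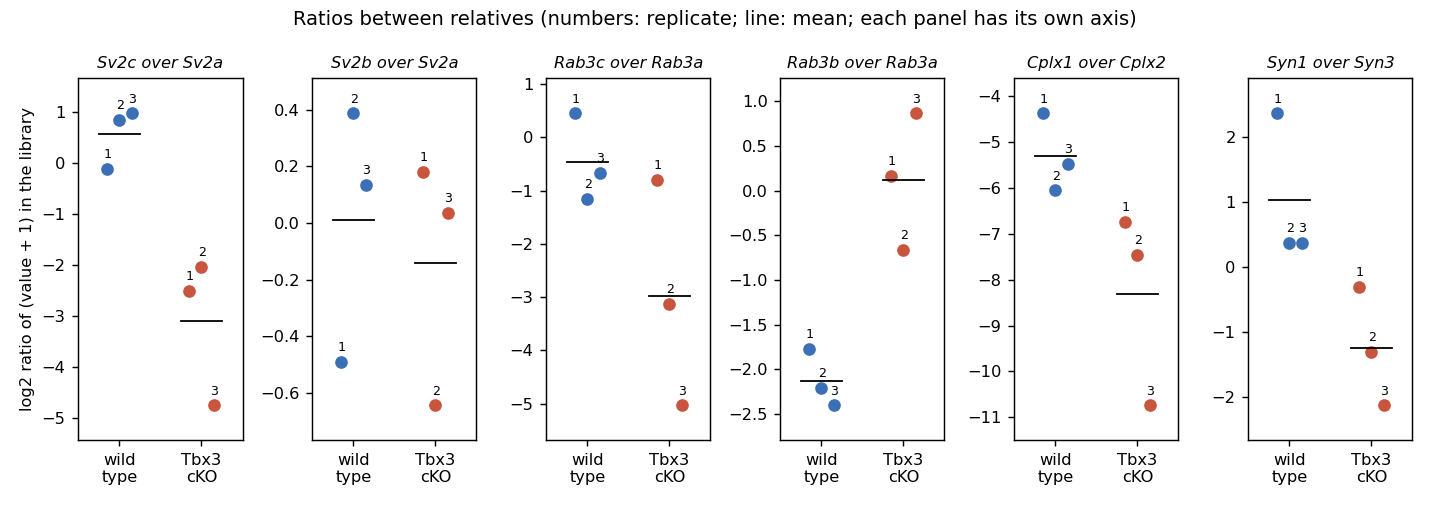
Log2 ratio of 2 related genes within each library (values + 1), numbered by replicate, with the group mean as a line. Each panel has its own axis. Sv2c over Sv2a, Rab3b over Rab3a, Cplx1 over Cplx2 and Syn1 over Syn3 separate the genotypes, and Sv2b over Sv2a and Rab3c over Rab3a do not.

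Another 84 genes of the same machinery were listed by role, of which 80 were tested. Their median log2 fold change was -0.19, with 55 negative and 25 positive, and 0 were called after adjustment in limma. By the unadjusted rule 13 of them were lower and 5 higher, where the shares over all genes were 7.18% and 6.4%. Wholly separated were 13 lower and 6 higher genes, where the shares over all genes were 11.8% and 10.6%. Among the lower ones, Cadps, a priming factor of dense-core vesicles, was at 3263, 1111 and 1443 against 660, 591 and 426 (log2 fold change -1.66, adjusted p = 0.284 by limma). Th, tyrosine hydroxylase of dopamine synthesis, was at 92.4, 90.2 and 116 against 17.1, 22.8 and 6.32 (log2 fold change -2.77, adjusted p = 0.197 by limma), with nearly level wild types. Doc2b, a calcium sensor, was at 464, 120 and 174 against 56.4, 39.8 and 89.5. Rph3a, a Rab3 effector, was at 1329, 23.5 and 44.0 against 11.1, 5.69 and 0, so its wild-type mean rests on wild type 1.

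Further genes without overlap and lower in Tbx3 cKO were the active zone proteins Cask (log2 fold change -0.50) and Erc1 (-0.37), the adhesion gene Lrrtm2 (-2.62), and the dynamin Dnm3 (-1.30). Scamp5, a secretory carrier protein, had -0.35 with overlapping groups. Higher without overlap were Syt17 at 174, 189 and 205 against 351, 287 and 402 (log2 fold change 0.86, adjusted p = 0.274 by limma) and Syt3 at 29.9, 90.2 and 80.7 against 187, 222 and 925 (log2 fold change 2.47, adjusted p = 0.319 by limma). The synaptotagmins thus held both signs, with Syt1, Syt4, Syt11 and Syt13 negative and 3 of 10 others positive. The glycine transporter gene Slc6a9 (log2 fold change 1.09) and the clathrin light chain Clta (0.38) were also higher in all 3 cKO libraries than in any wild type.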

How the data were processed

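Polyadenylated RNA of E13.5 retina was sequenced in 3 wild-type and 3 Tbx3 cKO libraries from a strand-specific kit, per the labels' protocols. The submitters' processing notes name cutadapt 4.2, STAR 2.7.8a, Partek and the build GRCm39. How reads were assigned to genes, whether by strand, and how libraries were scaled is not given in the sources used here, so reads of overlapping antisense genes cannot be told apart. The deposited values are a signal, read counts per gene normalized by the authors. From their low values (up to 20 steps, 76.1 to 77.4% within 0.02 steps of a whole multiple), they were read as estimated counts divided by 1 factor per library. The column totals were 23504342 to 25006748, and 3 reads correspond to 2.69 to 3.41.

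The 108 rows without a symbol (0.041% of the total) were left out. Genes at 10 or more in at least 3 libraries (18866) were compared as log2(value + 1) with limma-trend 3.58.1 (R 4.3.3) in a two-sided test, adjusted by Benjamini and Hochberg over all of them, with a threshold of 0.05. Fold changes are on that scale and understate those of low genes. The steps were tested on simulated data in which libraries of a genotype had the same expected levels. That test does not cover the differences between libraries of a genotype seen here. Exact permutation tests went through all divisions of the 6 libraries into 3 and 3, with numpy 2.4.6. Exon lengths came from GENCODE M21.

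The members, the other lists, the markers and the alternatives were chosen with earlier results of these data known. All 40 genes are named, with values per library for the 2 of highest mean in each role, those at an unadjusted p under 0.05 and those of the transmitter. The rule further took the 2 genes of smallest p from each list of other synaptic genes and the gene of highest mean from each marker list, apart from a few that are not reported here. Alternatives changed the pseudocount, filter, scaling, replicate block, library weights and empirical Bayes step, or left out each library. Those without wild type 1 and Tbx3 cKO 3, with a globin ratio term and within the 4 libraries of high globin ratio were added after seeing the data. The pairing of libraries was chosen after seeing the data as well.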

Additional observations from a re-analysis of the deposited data

How the results depend on the processing

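The values give no counts, so precision rests on 3 libraries per genotype. Of 946 recomputed fold changes of 50 named genes under 19 alternatives, 905 kept their direction and their side of the adjusted threshold, 6 became called and 35, of 10 genes, changed sign. In the full set the 95% intervals of all 10 include 0, and the cause was not tested. No scaling or pseudocount changed the count of called synaptic genes from 0. That count was 1 with library weights (among 54 genes called over the table) and 1 without wild type 1 and Tbx3 cKO 3 (among 43). With a globin ratio term it was 3 (Sv2c, Syt13 and Unc13a, among 109 genes called over the table). The main fit called 12 genes over the table. Cadps was called with the globin term as well (log2 fold change -1.53, adjusted p = 0.0393 by limma). Leaving out 1 library at a time gave 0 called in every case, 5 to 21 synaptic genes lower at an unadjusted p under 0.05 (5 without wild type 1, 7 without Tbx3 cKO 3, 8 without Tbx3 cKO 2, 21 without wild type 2) and 8 to 21 wholly lower, where fewer libraries overlap more rarely (21 without wild type 2 and 20 without Tbx3 cKO 1). On the higher side, 1 gene stood at an unadjusted p under 0.05 in 3 of these fits. Wholly higher were 2 genes when wild type 1 was left out, 1 when wild type 2 was and 1 when Tbx3 cKO 2 was. The median fold change then ran from -1.47 to -0.59 and the median distance from the pan-neuronal genes from 0.69 to 1.80. Without wild type 1 and Tbx3 cKO 3 8 genes were lower and 1 higher by the unadjusted rule, and that distance was 0.498. Within the 4 libraries of high globin ratio, 20 genes were wholly lower and 2 wholly higher. In the other set of 4 libraries, without wild type 1 and Tbx3 cKO 3, 20.4% of all genes were wholly lower and 19.3% wholly higher. For the high globin set and the fits without 1 library, the shares of all genes by these 2 rules were not computed. Their counts therefore cannot be read against a background.

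With the replicate number as a block (replicate block), 21 synaptic genes were lower at an unadjusted p under 0.05 in place of 14, 0 were higher, and 0 were called. The share of all genes at that unadjusted p was not computed for the block. Deviations of same-numbered libraries correlated at 0.33, 0.02 and 0.04, and wild type 2 and wild type 3 correlated best with a cKO library of another number, so the numbers were not taken as pairs.

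Sign changes were as follows, on the log2 scale. With 1 library left out at a time, Vamp2 ran from -0.11 to 0.33, Stx1a from -0.21 to 0.38, Sv2a from -0.55 to 0.62, Sv2b from -0.72 to 0.33, Syn3 from -0.29 to 0.26, Slc32a1 from -1.50 to 0.77, Gad2 from -3.35 to 0.15 and Dnm1 from -0.22 to 0.55. Among these, Gad2 was positive, and Dnm1 negative, only without Tbx3 cKO 3. Without wild type 1 and Tbx3 cKO 3, Syt1 was 0.10, Sypl1 -0.044, Sv2a 0.26, Syn3 0.068, Slc32a1 0.46 and Gad2 0.75. With library weights, Sv2a was 0.39 and Sv2b 0.14. Equal column totals gave 0.03 for Syn3. A globin ratio term gave 0.039 for Sv2a, 0.051 for Syn3 and 0.071 for Slc32a1. Within the 4 libraries of high globin ratio, Sv2a was 0.61, Sv2b 0.042 and Slc32a1 0.66.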
